A study of Schizosaccharomyces pombe with 23 samples.

Results

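The Pol δ libraries of fission yeast lacking *nup132* were compared with a replication fork barrier switched on or off. They are 5 of the 23 libraries of the series, chosen by genotype: 4 libraries labelled RFB ON (KK1901, KK1902, KK1518 and KK1517) and 1 labelled RFB OFF (KK1515). By their labels, all 5 strains carried the Pol δ mutation *cdc6-L591G*, the *rnh201-RED* allele marked with Kan, the *RTS1* barrier beside *ura4* on chromosome II (Rura-ChrII RTS1::phleo), and *ura4-D18*, *ade6-704* and *leu1-32*. The controls therefore share every polymerase and repair allele with the RFB ON strains. In RFB ON, *rtf1* stood behind the *adh1* promoter (Nat:ADH1:rtf1), and in RFB OFF it was deleted (rtf1::NAT). The *nup132* deletion was marked with Hygro in KK1901 and KK1902 and had no marker named in KK1518, KK1517 and KK1515. Pol δ libraries without a *nup132* deletion, called WT here, served as references (KK1467, RFB OFF, and KK1471, RFB ON). By their labels they carried the other alleles listed, with *rtf1* as in the matching RFB group. RFB ON libraries of an *rpn10* deletion also entered the comparison with WT. Log-phase cultures in YE medium at 30 °C were used. The labels do not say whether strains of a group came from separate crosses or cultures, so p-values measure only the spread between these libraries. With 4 libraries against 1, an exact permutation test cannot give a p under 0.2.

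Pu-Seq (polymerase usage sequencing) reads out which DNA polymerase made each strand. The mutant Pol δ leaves more ribonucleotides in the strand it makes, and their positions are mapped and counted on each strand. At a canonical fork Pol ε makes the leading strand and Pol δ the lagging strand. *RTS1* bound by Rtf1 is a polar barrier that stops forks coming from 1 side. Forks stopped there can restart by homologous recombination, and a restarted fork uses Pol δ on both strands, which is called Pol δ/δ synthesis. Nup132 is a nucleoporin of the Y complex of the nuclear pore and is needed to keep the SUMO protease Ulp1 at the nuclear periphery. The question was where, and by how much, the barrier changed the strand pattern of Pol δ in cells without Nup132.

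The measure used here is the Watson share, the forward-strand counts divided by the counts of both strands. In a Pol δ library it is low where forks run rightwards, high where they run leftwards, and falls from left to right across an origin. The libraries held 12065673 (KK1901), 13270315 (KK1902), 12177853 (KK1518), 5396348 (KK1517) and 14214799 counts (KK1515) in 41909 bins of 300 bp per strand. The Watson strand took 50.5% to 50.6% of the counts of each library. KK1517 was the shallowest, so its values carry the widest counting error. No pair of these libraries agreed within sampling noise, since the chi-square per degree of freedom was at least 2.82 for each pair.

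The altered genes were examined first. Counts on *nup132* (SPAC1805.04, chromosome I, 2777288 to 2781053) were 1.54% to 2.22% of the flanking bins in the 5 libraries and 109% in WT RFB OFF (KK1467). Counts on *rtf1* (SPAC22F8.07C, chromosome I, 4797195 to 4799127), which encodes the factor that binds *RTS1*, were 72.3% to 85.2% of the flanks in the 4 RFB ON libraries and 4.53% in KK1515. The labels thus matched the counts at these genes in the 5 libraries. The presence and orientation of *RTS1* were not checked in any library. The stretch below is shown because it lies in the *rtf1* coding sequence and is where RFB ON and OFF differed most in counts within the gene (chromosome I, 4798501 to 4798800, plus strand of the RefSeq assembly, whose length for chromosome I is that of the files). Capitals mark runs of at least 8 bases that are only A or T.

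rtf1: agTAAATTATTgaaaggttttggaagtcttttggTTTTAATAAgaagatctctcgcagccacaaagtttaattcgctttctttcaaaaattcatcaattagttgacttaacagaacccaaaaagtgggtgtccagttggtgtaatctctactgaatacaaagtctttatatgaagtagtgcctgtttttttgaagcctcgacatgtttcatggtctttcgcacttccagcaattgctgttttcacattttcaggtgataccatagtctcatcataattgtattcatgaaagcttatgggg

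This stretch held 144 counts in KK1901, 206 in KK1902, 133 in KK1518 and 70 in KK1517. KK1515 held 0, which allows up to 0.211 CPM (counts per 1000000 counts of the library). Runs of this kind occur in 88.8% of the 300-bp bins of chromosome I, so they do not set this stretch apart.

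Downstream of the barrier, the Watson share lay above RFB OFF in each of the 4 RFB ON libraries, by very different amounts. The barrier edge was placed at 852.6 kb of chromosome II (the files' own coordinates), where the WT RFB ON library (KK1471) stepped up most from WT RFB OFF. From 1 to 3 kb downstream, KK1515 had a share of 0.138 (332 of 2414 counts, 95% Wilson interval 0.124 to 0.152). KK1901 had 0.608 (2441 of 4017 counts, 0.592 to 0.623) and KK1517 had 0.634 (691 of 1090 counts, 0.605 to 0.662). KK1902 had 0.338 (848 of 2506 counts, 0.320 to 0.357) and KK1518 had 0.303 (665 of 2197 counts, 0.284 to 0.322). No interval of an RFB ON library reached that of KK1515, but these intervals cover counting error only. The intervals of KK1901 and KK1517 overlapped each other, as did those of KK1902 and KK1518, and the first pair lay clear of the second. Each of these pairs held 1 Hygro-marked deletion and 1 with no marker named.

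The mean of the RFB ON libraries was 0.471 ± 0.174 (SD, n = 4), 0.333 above KK1515. This difference is larger than the SD between the RFB ON libraries, but the single RFB OFF library gives no spread of its own. An exact permutation gave a two-sided p of 0.2, the smallest this design can give. The difference was 0.302 with the mean of the shares of single bins and 0.339 with the scaled share defined below. It was 0.279 without KK1517 and 0.389 without KK1518. The unmarked deletions KK1518 and KK1517 gave 0.331 above KK1515, and the Hygro-marked ones 0.335. WT RFB ON had a share of 0.483 in the same stretch and WT RFB OFF 0.120. The WT value lay between the shares of KK1902 and KK1901.

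**Figure D1:**
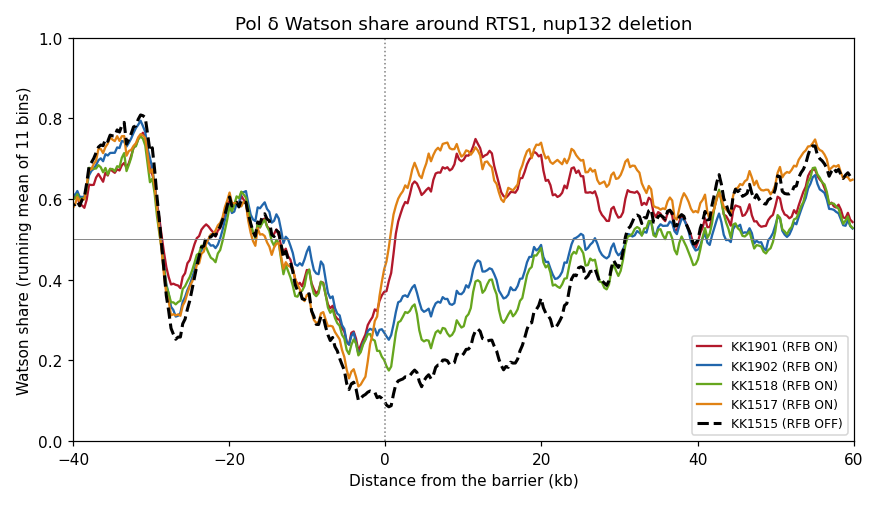
Watson share of each Pol δ library, as a running mean of 11 bins of 300 bp (vertical axis), against distance from the barrier in kb (horizontal axis, downstream to the right). KK1901 and KK1517 rise above 0.5 within 1.35 kb of the barrier and stay above KK1515 (dashed) up to 35.3 kb in KK1901 and 41.3 kb in KK1517, KK1902 and KK1518 stay closer to KK1515, and from 34 to 36 kb the RFB ON libraries lie between 0.525 and 0.621, on either side of KK1515 (0.560).

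The libraries also differed in shape with distance. In KK1515 the share was 0.121 at 4 to 6 kb downstream, 0.207 at 9 to 11 kb, 0.332 at 19 to 21 kb and 0.470 at 24 to 26 kb, and it first passed 0.5 at 30.8 kb. KK1901 had 0.596, 0.705, 0.692 and 0.704 at the same distances. KK1517 had 0.679, 0.712, 0.734 and 0.721. These shares were above 0.5 at each distance. They were lower at 14 to 16 kb, with 0.636 in KK1901 and 0.613 in KK1517, where KK1515 was also lower (0.164). The smoothed share first passed 0.5 at 1.35 kb in KK1901 and 0.75 kb in KK1517. KK1902 had 0.294, 0.357, 0.472 and 0.538, and KK1518 had 0.212, 0.292, 0.452 and 0.512. These 2 libraries lay above KK1515 at each of the 4 distances, and first passed 0.5 at 24.2 kb (KK1902) and 31.1 kb (KK1518). The smoothed share of KK1518 first fell below that of KK1515 at 27.8 kb. WT RFB ON had 0.550, 0.693, 0.748 and 0.751, which is also above 0.5 at each of these distances. For the RFB ON libraries against KK1515, exact permutation gave two-sided p-values of 0.4, 0.6, 0.2 and 0.4 at the 4 distances, where 0.2 is the smallest possible.

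By 34 to 36 kb downstream the RFB ON mean of 0.572 ± 0.0425 (SD, n = 4) was 0.0119 above KK1515, less than its SD. At 44 to 46 kb the difference was -0.0121, again less than the SD of 0.0531. From 20 to 10 kb upstream it was -0.000495, with an SD of 0.0226. The difference was thus below the spread of the RFB ON libraries at these 3 distances. From 10 to 5 kb upstream it was 0.0852 with an SD of 0.0449, and from 30 to 20 kb upstream 0.0246 with an SD of 0.0242, above the spread in each case. On the scaled share these were 0.0392 and 0.00843, below the SDs of 0.0508 and 0.0297.

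Directly upstream, from 5 to 1 kb before the barrier, the share was 0.103 in KK1515. It was 0.251 in KK1901, 0.232 in KK1902, 0.225 in KK1518 and 0.145 in KK1517. All 4 lay above KK1515, and their order differed from that downstream, with KK1517 lowest here and highest there. The mean difference of 0.111 was larger than the SD of 0.0468. With the scaled share, defined below, it was 0.0169, less than the SD of 0.0243. In the same stretch WT RFB ON and OFF had measured shares of 0.0811 and 0.0906. The 3-kb window that starts at -3.6 kb and ends at -0.6 kb kept a scaled difference of 0.0734 with an SD of 0.00724. Unlike the stretch above, it includes bins less than 1 kb from the barrier edge. The smoothed share of KK1517 rose from 0.159 at -2.55 kb to 0.197 at -2.25 kb, where the bin at -0.75 kb enters the running mean. In KK1515 it went from 0.115 to 0.121. The part of the bins at the edge in the difference of this window was not tested. Its scaled share was 0.0996 in KK1515, 0.163 in KK1901, 0.180 in KK1902, 0.172 in KK1518 and 0.176 in KK1517, so all 4 lay above KK1515 and close together. This window passed by DESeq2 (adjusted p = 2.38e-05) and not by edgeR (adjusted p = 0.0731) or by limma on the scaled share (adjusted p = 0.994).

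The smoothed difference from KK1515 was largest 9.15 kb downstream in KK1901 (0.498) and 5.55 kb downstream in KK1517 (0.549). In KK1902 it peaked at 3.75 kb (0.211) and in KK1518 at 3.45 kb (0.164). The difference had fallen below 50% of its value at 1 to 3 kb by 25.1 kb in KK1901, 23.6 kb in KK1902 and 26.6 kb in KK1517. In KK1518 it first did so at 5.85 kb, but its difference was again 0.153 at 14 to 16 kb and 0.120 at 19 to 21 kb, so this first dip does not mark where the difference ended. The mean distance was 20.3 ± 9.68 kb (SD, n = 4) and 25.1 kb without KK1518. KK1518 also had the smallest starting difference, 0.165.

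In single bins the direction was mostly the same in the 4 libraries, though the size was not. Of the 100 bins from 0 to 30 kb downstream, 92 had all 4 RFB ON libraries above KK1515 and 0 had all 4 below. Over all 41885 bins with at least 20 counts in each library, 24.1% had all 4 above and 23.6% all 4 below. That background was not matched for share. The share of KK1515 was low in most of this stretch, and low shares were higher in RFB ON across the genome too, as given below. Bins were not scaled. KK1901 and KK1517 lay above KK1515 in all 100 of these bins, KK1902 in 99 and KK1518 in 92. The 8 bins that broke the pattern lay from 20 to 30 kb downstream. Across the genome 49.7% of bins lay above KK1515 in KK1901, 49.9% in KK1902, 49.8% in KK1518 and 50.8% in KK1517.

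Counts of the single strands showed which strand moved. From 1 to 3 kb downstream, the Watson strand held 11.7 CPM per kb in KK1515, 101 in KK1901, 64.0 in KK1517, 32.0 in KK1902 and 27.3 in KK1518. Each RFB ON library was above RFB OFF, with a mean of 56.1 ± 34.2 (SD, n = 4), 4.80 times KK1515. The Crick strand held 73.2 in KK1515, 65.3 in KK1901, 62.5 in KK1902, 62.9 in KK1518 and 37.0 in KK1517. Close to the barrier the Watson level was thus higher than in KK1515 in all 4 libraries, while the Crick level was lowest in KK1517. From 9 to 11 kb downstream the Crick strand held 64.5 in KK1515, 31.8 in KK1901, 21.03 in KK1517, 48.7 in KK1902 and 56.6 in KK1518. The Watson strand there held 16.8, 76.1, 52.1, 27.1 and 23.3 in the same order. In KK1901 and KK1517 the strands had thus changed places at this distance, and in KK1902 and KK1518 the Crick strand still held more. Exact permutation gave a two-sided p of 0.4 for each strand at 1 to 3 kb, where 0.2 is the smallest possible.

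**Figure D2:**
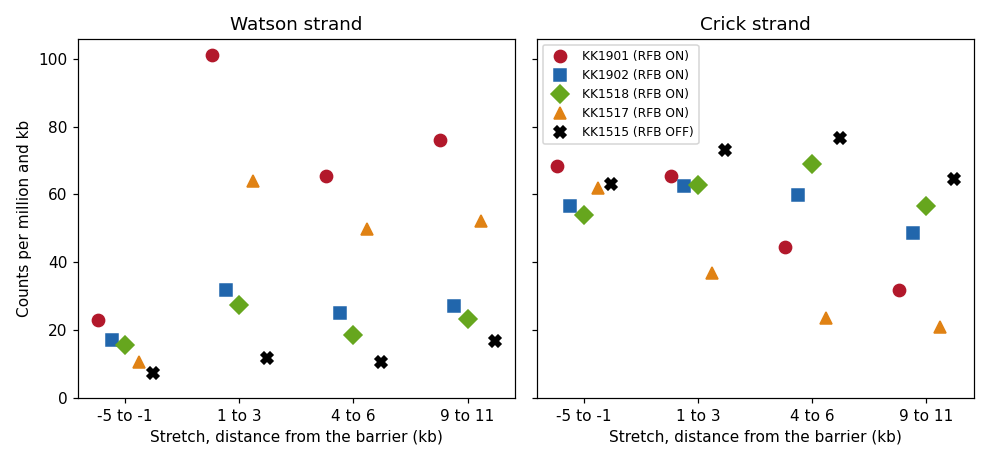
CPM per kb on the Watson strand (left) and the Crick strand (right) in 4 stretches, given by their distance from the barrier in kb, with 1 symbol per library. From 1 kb downstream on, the Watson level of each RFB ON library lies above KK1515 (11.7 at 1 to 3 kb), with KK1901 and KK1517 highest. Over the same stretches the Crick level of each lies below KK1515 (73.2 at 1 to 3 kb).

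Across the rest of the genome, all 4 RFB ON libraries had a weaker strand pattern than KK1515. The slope of a library's share on that of WT RFB OFF, over 4169 windows of 3 kb more than 30 kb from the barrier, is 1 for an equally strong pattern and 0 for none. It was 0.601 in KK1901, 0.699 in KK1902, 0.738 in KK1518, 0.839 in KK1517 and 0.957 in KK1515. The RFB ON slopes lay below KK1515 without overlap, with a mean of 0.719 ± 0.0984 (SD, n = 4), and the difference of -0.238 exceeded that SD. Exact permutation gave a two-sided p of 0.2, the smallest possible. WT RFB ON had a slope of 1.03. The shallowest RFB ON library, KK1517, had the steepest slope of the 4, and the part of depth in the slopes was not tested.

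The weakening held at low and at high shares. Where WT RFB OFF had a share under 0.3 (883 windows), the mean share was 0.221 in KK1515, 0.325 in KK1901, 0.298 in KK1902, 0.287 in KK1518 and 0.257 in KK1517. Where it was at least 0.7 (875 windows), KK1515 had 0.778 and the RFB ON libraries 0.675, 0.702, 0.713 and 0.746 in the same order. All 4 were nearer to 0.5 than KK1515 at both ends. In 55.1% of all 4190 windows tested all 4 RFB ON libraries were nearer to 0.5 than KK1515, and in 4.94% all 4 were farther from it. The chromosomes did not stand apart. The mean absolute difference of the RFB ON mean from KK1515 was 0.0498 on chromosome I, 0.0478 on II and 0.0498 on III, and 0.0410 within 50 kb of chromosome ends.

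**Figure D3:**
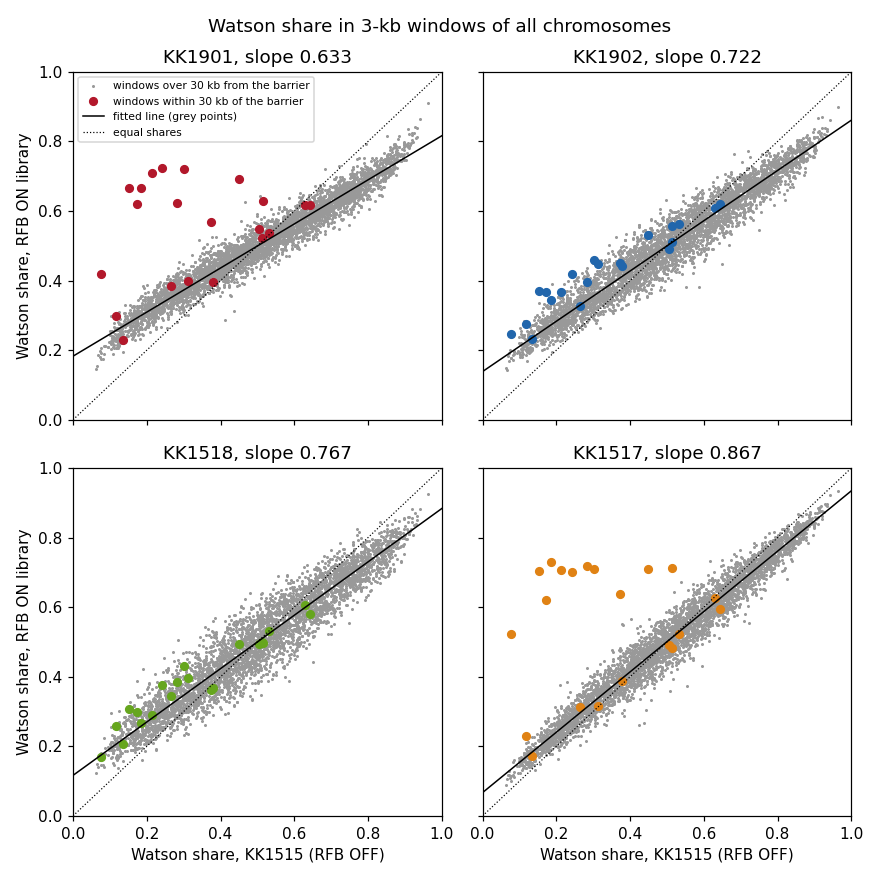
Watson share of each RFB ON library (vertical axis) against KK1515 (horizontal axis) in 3-kb windows, with windows more than 30 kb from the barrier in grey and those within 30 kb in colour. The fitted lines (slopes 0.633, 0.722, 0.767 and 0.867) are flatter than the dotted line of equal shares, and the coloured windows of KK1901 and KK1517 lie far above the grey points, while those of KK1902 and KK1518 lie at their upper edge or among them.

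Origins also showed a weaker pattern in RFB ON. At 320 origins, taken as places where the share of WT RFB OFF dropped by at least 0.3 between the 3 kb on either side, the mean drop was 0.497 in KK1515 and 0.431 in KK1517. It was 0.338 in KK1902, 0.335 in KK1518 and 0.292 in KK1901. The drop was smaller than in KK1515 at 320 origins in KK1901, 317 in KK1902, 317 in KK1518 and 290 in KK1517, and at 286 in all 4. The difference of -0.147 was larger than the SD of 0.0586 between the RFB ON libraries (two-sided exact permutation p = 0.2, the smallest possible). Divided by the slope of each library, the drops were 0.486, 0.484, 0.454 and 0.514 for KK1901, KK1902, KK1518 and KK1517, against 0.519 in KK1515. The nearest origin upstream of the barrier, at -28.5 kb from it, had a drop of 0.596 in KK1515, 0.348 in KK1901, 0.455 in KK1902, 0.397 in KK1518 and 0.464 in KK1517. All 5 libraries thus showed a drop there.

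Because a weaker pattern by itself draws a low share upwards, the share was also scaled. The scaled share is what a library's share would be if its line on WT RFB OFF had a slope of 1 and an intercept of 0. On this scale, KK1901 lay 0.559 above KK1515 from 1 to 3 kb downstream of the barrier, KK1517 0.538, KK1902 0.148 and KK1518 0.112. From 4 to 6 kb the differences were 0.556, 0.609, 0.101 and 0.00522. Over the 11 windows of 3 kb from the barrier to 30 kb downstream, the mean scaled difference was 0.474 in KK1901, 0.454 in KK1517, 0.106 in KK1902 and 0.0418 in KK1518. The scaling rests on 1 WT library and takes the weakening to be the same everywhere.

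**Figure D4:**
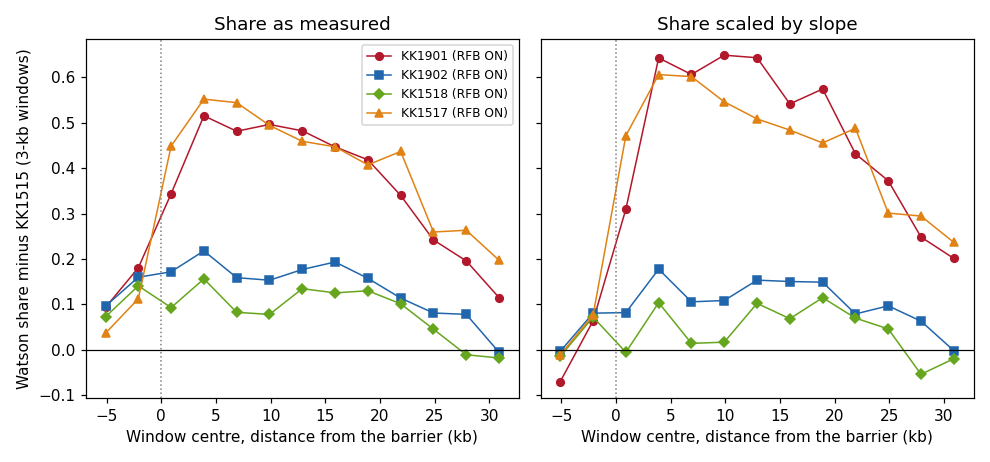
Watson share of each RFB ON library minus KK1515 in 3-kb windows, against the distance of the window centre from the barrier in kb, as measured (left) and after scaling (right). KK1901 and KK1517 reach 0.515 and 0.552 as measured, KK1902 reaches 0.218 and KK1518 reaches 0.156, and after scaling KK1518 lies close to 0 in several windows.

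The windows around the barrier were then tested together with the rest of the genome. The edgeR test of 4190 windows called 0 windows between RFB ON and OFF (0% of those tested), with 933 at an unadjusted p under 0.05 (22.3%). The 21 windows within 30 kb of the barrier were not among the calls. DESeq2 called 493 (11.8%), of which 2 lay within 30 kb of the barrier, both of them upstream. Its adjusted p for the 11 windows from the barrier to 30 kb downstream was 0.118 to 0.714. Of the 11 windows from the barrier to 30 kb downstream, 9 had an unadjusted p under 0.05, and adjusted p-values ranged from 0.0731 to 0.521. The log2 odds ratios of Watson against Crick counts, RFB ON over OFF, lay between 0.42 and 2.55. The SD of the share between RFB ON libraries was 0.102 to 0.230 in these windows, against a mean of 0.0341 in windows elsewhere. The lack of calls does not show a lack of change.

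The calls depended on which library was included. Without KK1902, edgeR called 12 windows (0.286% of 4190), 9 of them within 30 kb of the barrier, and without KK1518 also 12 (0.286%), again with 9 there. Without KK1517 it called 1203 (28.7%), 13 of them near the barrier, and without KK1901 0 (661 at an unadjusted p under 0.05). Of the 1190 windows called elsewhere without KK1517, 1184 had a 4-library RFB ON mean nearer to 0.5 than KK1515, as did 83.2% of all windows over 30 kb from the barrier. With a term for the marker of the deletion 8 windows were called (0.191%), all 8 within 30 kb of the barrier, and with only the libraries that have no marker named 6 (0.143%), all 6 there and all higher in RFB ON. The window over the barrier and the next one downstream had edgeR adjusted p-values of 0.00131 and 0.00065 in that last comparison, which rests on 2 libraries against 1. On the scaled share limma called 0 windows, with 34 at an unadjusted p under 0.05.

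The change with the barrier was set beside that in WT. At 9 to 11 kb downstream the RFB ON mean lay 0.310 above RFB OFF in *nup132* deletion, against 0.491 in WT. At 1 to 3 kb these were 0.333 and 0.363. The mean at 9 to 11 kb matched no single library. KK1901 (0.498) and KK1517 (0.505) lay above the WT change, and KK1902 (0.150) and KK1518 (0.0848) far below it. In the edgeR test of the difference between the *nup132* deletion and WT changes, 0 of 4190 windows were called (0%), with 418 at an unadjusted p under 0.05. The 11 barrier windows had adjusted p-values of 0.700 to 0.976. This fit used all usable Pol δ libraries, among them RFB ON libraries of an *rpn10* deletion. WT had 1 library a group, so the spread came from the RFB ON libraries of the *nup132* and *rpn10* deletions. No other tool was run on this difference.

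The 4 RFB ON libraries were also compared with each other. Away from the barrier, KK1902 and KK1518 were the most alike, with a mean absolute difference in share of 0.0230 (Pearson r = 0.986 across windows, which are not independent replicates). KK1901 and KK1517 differed most, by 0.0539. The SD of the difference was 0.0288 to 0.0649 over the 6 pairs, while counting error alone gives 0.0129 to 0.0165, so each pair differed by more than counting error. From the barrier to 30 kb downstream the order changed. KK1901 and KK1517 differed by a mean of 0.0459 there and KK1902 and KK1518 by 0.0526, and KK1518 and KK1517 by 0.326. KK1902 and KK1518 were thus close in both places. KK1901 and KK1517 had the largest mean difference as measured elsewhere and were close downstream of the barrier. On other measures KK1518 and KK1517 were the least alike elsewhere. Their scaled difference was 0.0604, against 0.0491 for KK1901 and KK1517, and their Pearson r was 0.938 against 0.959. The comparison of Hygro-marked with unmarked RFB ON libraries called 0 windows by edgeR (0%), with 193 at an unadjusted p under 0.05, and 0 by DESeq2 (110 unadjusted). Each marker class held 1 of the libraries with a large change at the barrier.

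Elsewhere no window passed the threshold by edgeR, so the 5 with the largest mean difference among those with all 4 RFB ON libraries on 1 side of KK1515 are given as values. DESeq2 called 491 windows elsewhere. All 491 had a 4-library RFB ON mean nearer to 0.5 than KK1515, as did 83.2% of all windows over 30 kb from the barrier. Its adjusted p for these 5 was 0.00808, 0.0162, 0.0236, 0.00268 and 0.0162 in order of the size of the difference. The 5 were picked by size in the same data, so these p-values are no separate support. After scaling, the differences were 0.119, -0.141, -0.163, 0.0896 and 0.116 in that order, each with a limma adjusted p of 0.994. Windows with all 4 on 1 side made up 59.8% of the 4190 tested as measured and 30.1% after scaling. At 5259001 to 5262000 of chromosome I the share was 0.189 in KK1515, 0.345 in KK1901, 0.391 in KK1902, 0.421 in KK1518 and 0.248 in KK1517 (edgeR adjusted p = 0.0788). The window holds *dpp1* and parts of *atp1*, an ATP synthase subunit gene, and of *abp1* (SPAPJ760.02C). At 2901001 to 2904000 of chromosome I it was 0.749 in KK1515, 0.561, 0.546 and 0.553 in KK1901, KK1902 and KK1518, and 0.701 in KK1517 (edgeR adjusted p = 0.0845). This window covers *rpb7*, an RNA polymerase II subunit gene, and parts of *cta4* and *tcb3*. At 3363001 to 3366000 of chromosome II and 1557001 to 1560000 of chromosome III the RFB ON mean was 0.149 and 0.146 above KK1515. KK1517 was the library closest to KK1515 in each of these 4 windows. WT RFB ON and OFF differed there by 0.0268 or less.

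The remaining window of the 5 lies beside *rtf1*, at 4794001 to 4797000 of chromosome I, over SPAC22F8.05 and *pam1*. Its share was 0.650 in KK1515, 0.519 in KK1901, 0.447 in KK1902, 0.443 in KK1518 and 0.582 in KK1517 (edgeR adjusted p = 0.0945). All 4 lay below KK1515, by 0.152 on average, and by 0.163 after scaling. In WT the share of this window was 0.646 in RFB OFF and 0.615 in RFB ON. The bin of this window that differed most within a coding sequence is shown, from SPAC22F8.05 (chromosome I, 4794001 to 4794300, plus strand, capitals as above).

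SPAC22F8.05: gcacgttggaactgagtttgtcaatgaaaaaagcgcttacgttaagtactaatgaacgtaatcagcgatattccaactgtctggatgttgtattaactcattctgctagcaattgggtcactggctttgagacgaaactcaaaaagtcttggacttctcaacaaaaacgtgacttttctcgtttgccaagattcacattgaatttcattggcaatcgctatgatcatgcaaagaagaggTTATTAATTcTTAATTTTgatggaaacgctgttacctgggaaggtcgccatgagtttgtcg

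In these 300 bases the share was 0.800 in KK1515 (165 counts), 0.617 in KK1901 (133), 0.551 in KK1902 (147), 0.561 in KK1518 (132) and 0.726 in KK1517 (84). A or T made up 60.7% of them, against 63.9% of chromosome I. The neighbouring window, 4791001 to 4794000, differed in the same direction, with 0.587 in KK1515 and 0.469, 0.382, 0.387 and 0.532 in KK1901, KK1902, KK1518 and KK1517. In WT the share there was 0.558 in RFB OFF and 0.526 in RFB ON.

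After scaling, the largest difference elsewhere lay on chromosome II at 1761001 to 1764000. The share was 0.437 in KK1515, 0.313 in KK1901, 0.382 in KK1902, 0.320 in KK1518 and 0.266 in KK1517. All 4 were lower, by 0.117 as measured and 0.185 after scaling (edgeR adjusted p = 0.154). WT differed more in this window than in the 5 above, with 0.435 in RFB OFF and 0.246 in RFB ON. The step between WT RFB ON and OFF at 1765.2 kb of chromosome II, 0.220, was the largest after that at the barrier (0.272). The window was ranked by a measure added after the data were seen. By the same ranking, 36001 to 39000 of chromosome II had shares of 0.413 in KK1515, 0.285 in KK1901, 0.343 in KK1902, 0.293 in KK1518 and 0.406 in KK1517. This window lies near a chromosome end, and its total counts differed widely, with 7911 in KK1901, 8048 in KK1902, 5403 in KK1518, 1374 in KK1517 and 3355 in KK1515. These counts are not adjusted for depth, and KK1517 held 5396348 counts in all against 14214799 in KK1515.

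**Figure D5:**
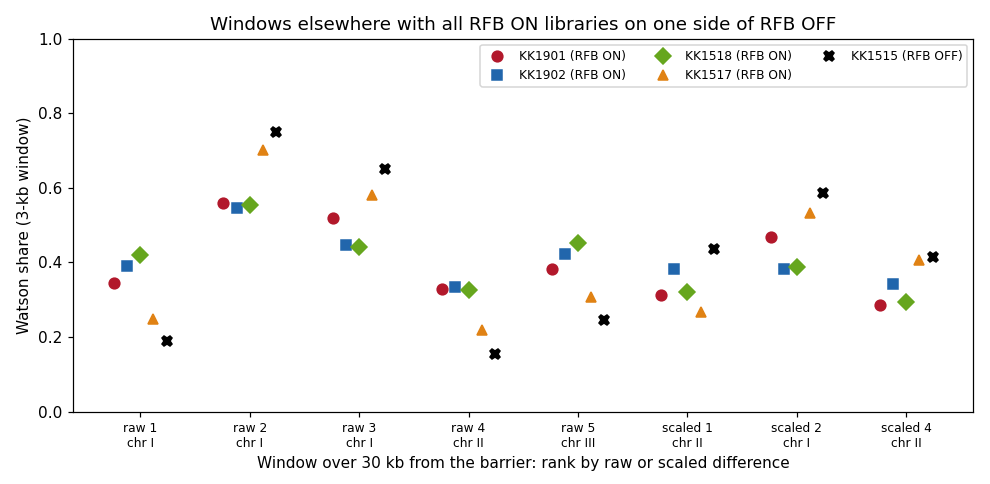
Watson share of each library (symbols, vertical axis) in 8 windows of 3 kb more than 30 kb from the barrier, ranked by the difference between RFB ON and OFF as measured (raw 1 to 5) or after scaling (scaled 1, 2 and 4, those not already among the first). KK1517 lies closest to KK1515 in all but the window called scaled 1, where it is the farthest at 0.266.

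Total counts per window, which do not depend on strand, were tested as well. Of 4192 windows, edgeR called 1 (0.0239%), with 184 at an unadjusted p under 0.05. It was 4797001 to 4800000 of chromosome I, which holds *rtf1* and the start of *sec24*, a COPII coat gene. Its level was 163 CPM in KK1901, 156 in KK1902, 145 in KK1518, 170 in KK1517 and 67.2 in KK1515, a log2 fold of 1.24 (edgeR adjusted p = 9.25e-05). The window covers the whole of the gene that the RFB OFF strain lacks. None of the 21 windows within 30 kb of the barrier was called, which does not show a lack of change in total counts there. From 90001 to 102000 of chromosome II, 4 neighbouring windows held more counts in RFB ON. At 99001 to 102000 the level was 296, 342, 334 and 255 CPM in KK1901, KK1902, KK1518 and KK1517 and 191 in KK1515. None of them passed by edgeR with all 5 libraries (adjusted p at least 0.587), and all 4 passed by edgeR with the libraries that have no marker named. By DESeq2 with all 5 libraries, the window at 90001 passed (adjusted p = 0.0440) and the other 3 did not.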

How the data were processed

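The series holds Pu-Seq libraries of *Schizosaccharomyces pombe*. The authors aligned the reads with Bowtie2 (no version in the sources used here) and deposited raw counts of read ends for each strand in bins of 300 bp. The genome build is not given in the sources used here. Relative to the reference, the last bin centre of chromosome II lies at 2.046 kb and that of chromosome III at -1.733 kb from the end, so genes and sequences (RefSeq) are given only for chromosome I. Libraries were grouped by genotype. Of 12 Pol δ libraries, 2 WT libraries with fewer than 10 counts per bin were not used, nor was any Pol ε library.

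Counts were summed in 3-kb windows with a mean of at least 10 counts per strand. The difference in log2 odds of Watson against Crick was fitted with edgeR's quasi-likelihood test, with a term for each library, Benjamini-Hochberg adjustment and a threshold of 0.05. Single values were compared by two-sided exact permutation. Intervals are Wilson intervals and cover counting error only. Of windows given a log2 odds change of 1 in data simulated for RFB ON against OFF, 107 of 108 were recovered among 4190, with 7 false calls. The simulation gave all libraries of a condition the same share in a window, with little noise. It lacked the spread seen between the RFB ON libraries, so it checks the fit and does not give the power of the real comparison. Windows were named by rule: all from 6 kb upstream to 30 kb downstream of the barrier and, with fewer than 5 calls elsewhere, the 5 largest differences with all 4 RFB ON libraries on 1 side. Totals were named where called, and altered genes where on chromosome I. The 90001 to 102000 stretch of chromosome II was chosen after its values were seen. The members and lists were chosen with earlier results of these data known.

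Alternatives covered DESeq2, other factors and filters, 1.5-kb and 6-kb windows, limma, the marker and each library left out. The scaled test with a library left out, the comparison with WT, the 0.5 crossing and the scaled ranking were added after seeing the data. Software was Python 3.11.15, numpy 2.4.6, pandas 2.3.3, scipy 1.17.1, matplotlib 3.10.9, R 4.3.3, edgeR 4.0.16, limma 3.58.1 and DESeq2 1.42.0.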

Additional observations from a re-analysis of the deposited data

Results flagged for a closer look

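Values of the 4 RFB ON libraries were screened for a library far from the other 3, in 49 sets, where chance gives about 1 flag in 20 sets. There were 6 flags, 1 of them a repeat. KK1517 held 5396348 counts against 12065673 to 13270315 in the others. Its Crick level at 1 to 3 kb past the barrier was 37.0 CPM (counts per 1000000) per kb, against 62.5 to 65.3. Its share was 0.701 at 2901001 to 2904000 of chromosome I, against 0.546 to 0.561, and 0.219 at 3363001 to 3366000 of chromosome II, against 0.326 to 0.335. In both windows KK1517 was the library closest to RFB OFF. The share difference of KK1518 first fell below 50% of its starting value 5.85 kb from the barrier, against 23.6 to 26.6 kb in the others, and was back at 0.153 by 14 to 16 kb, near its start of 0.165. The part of the depth of KK1517 in its values was not tested.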

How the results depend on the processing

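No paired analysis was possible because the labels give strain numbers and no replicate numbers shared between RFB ON and OFF. The count of windows called between RFB ON and OFF was 0 under the other settings of edgeR and limma, with exceptions: 493 by DESeq2, 3 with 1.5-kb windows, 8 with a marker term, 6 with the libraries that have no marker named, and 0 to 1203 with 1 RFB ON library left out (1203 without KK1517). On the scaled share it was 0 with each library left out (18 to 260 unadjusted). Hygro-marked against unmarked called 0 to 179 windows with 1 library left out (179 without KK1518). Totals called 4 windows by DESeq2, 7 with the unmarked libraries and 1 to 5 with 1 library left out.

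Next to the barrier the difference stayed positive in every setting tried, and with 1 library left out it was 0.279 to 0.389. The differences in slope (-0.278 to -0.199) and origin step (-0.175 to -0.128) stayed negative. The scaled origin step was -0.0342. The halving distance was 18.2 to 25.1 kb, and the strand differences 29.4 to 54.0 (Watson) and -19.1 to -9.67 (Crick). Values that were near 0 changed sign. The difference from 20 to 10 kb upstream was 0.0106 and 0.0109 with the barrier moved 1 kb downstream and with the scaled share, 0.000776 with bin shares, 0.0161 with the Hygro-marked libraries, and -0.0106 to 0.00658 with 1 library left out. From 34 to 36 kb it was -0.00911 with the barrier moved 1 kb downstream, -0.000277 with bin shares and -0.00436 to 0.0277 with 1 library left out. From 44 to 46 kb it was 0.00253 with the unmarked libraries and -0.0369 to 0.00303 with 1 left out. In the window that starts at -6.6 kb the scaled difference was -0.0244. The cause was not tested for any of these. The single RFB OFF library limits every comparison.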
